A study of Mus musculus with 16 samples.

Results

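Monoubiquitylated histone H2B (H2Bub1) was set beside RNA polymerase II (Pol II), gene by gene, in wild-type (WT) mouse embryonic fibroblasts (MEFs). The genes were all 21938 protein-coding genes that GENCODE M21 places on the 21 assembled chromosomes of mm10, so that 21938 of 21938 entered the comparison. For each gene, 3 values were taken from the authors' peak lists. The first is the promoter Pol II fold, which is the highest fold enrichment over background among Pol II peaks within 1000 bp of the transcription start site (TSS). The others are the share of the gene body, from TSS to transcript end, that lies inside Pol II peaks, and the share inside H2Bub1 peaks.

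H2Bub1 is placed on chromatin by the ligase pair RNF20 and RNF40, which travel with the PAF complex and elongating Pol II, and it is removed by the deubiquitylases USP22, USP27X and USP51, which all need the adaptor ATXN7L3. The mark is therefore known as a sign of transcribed gene bodies. Pol II itself tends to gather just downstream of the TSS, at the promoter-proximal pause, before it is released into the gene body, and it gathers again past the end of the gene, where transcription terminates. Whether the mark follows the amount of Pol II at the promoter, the Pol II in the body or the length of the gene is the question that the peak lists can address.

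The series holds 16 chromatin immunoprecipitation (ChIP-seq) samples, and the lists of 2 of them carry the results below: 1 H2Bub1 library and 1 Pol II library. Both came from primary Atxn7l3+/+ MEFs of the strain DBA/2 x C57BL/6, grown out of E10.5 embryos after the head and gut had been removed, with N-ethylmaleimide in the buffers to block deubiquitylation. Per the study, the Pol II antibody binds the unmodified C-terminal domain of RPB1, the large subunit of the enzyme. Pol II with a modified domain may therefore be undercounted, in gene bodies too, and this was not tested. The same pair of marks from Atxn7l3-/- (KO) MEFs, which the study calls MEF-like and which carry the deletion in the whole embryo, and from Atxn7l3+/+ mouse embryonic stem cells (mESCs) of the same strain, grown from blastocysts with LIF and kinase inhibitors, is given side by side. The inputs and the remaining libraries were not analysed here. Each list rests on 1 library, without replicates, so no p-value is given and the 95% intervals cover counting over genes or peaks only. Read depth is unknown, and a longer or deeper list calls more genes, so levels in the 3 pairs of libraries are not set on a common scale. In a bulk sample, a gene marked in fewer cells and a gene with less mark per cell cannot be told apart.

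The WT MEF Pol II list held 45870 peaks over 51.5 Mb, with a median width of 661 bp and a median fold of 3.95. The H2Bub1 list held 19725 peaks over 48.1 Mb, with a median width of 1313 bp and a median fold of 3.09, and these calls were weak, with a median -log10 q of 1.77. The label of the cells was checked against marker genes. All 12 fibroblast markers had a Pol II promoter peak and 9 of them H2Bub1. Among these were Col1a1, the chain of type I collagen (fold 38.3), Vim, the intermediate filament of mesenchymal cells (34.2), and Twist1, a mesenchymal transcription factor (26.8). Of the markers of other cells, 0 of 8 epithelial, 0 of 7 muscle, 1 of 6 endothelial (Kdr, fold 2.61), 2 of 6 blood (2.71 and 4.93), 4 of 8 neural (4.70 to 19.6) and 1 of 9 pluripotency genes (Klf4, also an immediate early gene) had a Pol II promoter peak, as did 54.1% of all genes.

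The first comparison asked how often Pol II at the promoter went with H2Bub1 over the gene. A Pol II promoter peak was called at 11860 genes (54.1%) and an H2Bub1 peak in the body at 6666 genes (30.4%). Both were found at 6213 genes, Pol II without H2Bub1 at 5647, H2Bub1 without promoter Pol II at 453 and neither at 9625. H2Bub1 was thus present in 52.4% of genes with promoter Pol II (51.5 to 53.3%) and in 4.49% of genes without it (4.10 to 4.92%). The Pol II-only genes were often marked in the other lists: 75.9% of them had H2Bub1 in KO MEFs and 65.1% in mESCs, where the genes with both marks reached 99.4% and 92.7%. Of the 453 genes with H2Bub1 but no promoter Pol II, 420 (92.7%) had a Pol II peak inside the body. However, 152 of the 453 (33.6%) overlapped the body of a gene with promoter Pol II. Whether the marks there belonged to the overlapping gene was not tested. For comparison, among all genes longer than 2 kb without promoter Pol II, 1489 had Pol II beyond the first 1000 bp and 7390 had no Pol II. Seen from the H2Bub1 list, 92.2% of the peaks (18181) lay in the body of a gene with promoter Pol II, 5.74% (1133) in another gene and 2.07% (409) outside genes.

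H2Bub1 rose with the strength of promoter Pol II. The 11860 genes were ranked by promoter fold and split into 5 strength groups of 2372 genes, with group 1 the weakest (fold 1.41 to 7.49) and group 5 the strongest (19.7 to 51.4). H2Bub1 was found in 16.7% of the genes of group 1 (15.3 to 18.3%), 42.5% of group 2 (40.5 to 44.5%), 58.4% of group 3 (56.4 to 60.4%), 68.3% of group 4 (66.4 to 70.2%) and 75.9% of group 5 (74.2 to 77.6%). None of these intervals overlapped its neighbour. A finer split into 10 groups ran from 12.3% to 78.5% and increased at each step, with the steepest part among the weaker promoters. Where H2Bub1 was present, it also covered more of the gene: the median covered share was 5.28%, 8.83%, 13.8%, 17.1% and 25.6% in groups 1 to 5. The height of the H2Bub1 peaks moved much less, with a median H2Bub1 fold of 3.12 in group 1 and 3.37 in group 5. Across the 11860 genes, Spearman's rho between promoter fold and H2Bub1 share was 0.457, and with peaks of a -log10 q of at least 3 alone it was 0.249. These points share 1 library per mark, and neighbouring genes can share a peak.

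**Figure D1:**
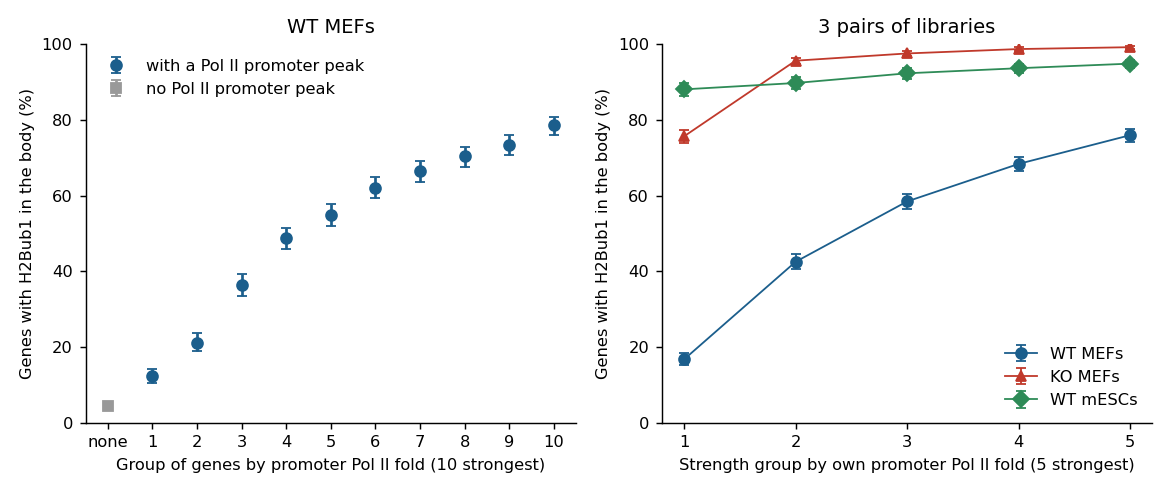
Percentage of genes with an H2Bub1 peak in the body against promoter Pol II fold, with 95% exact intervals over genes. On the left, genes of WT MEFs without promoter Pol II (grey square, 4.49%) and 10 groups by fold (blue points, 12.3% to 78.5%). On the right, 5 strength groups in each pair of libraries, ranked by its own Pol II list, where WT MEFs climb from 16.7% to 75.9% and the others start higher.

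The plot by strength also sets the other libraries beside WT MEFs. Ranked by their own promoter fold, the 5 groups of KO MEFs had H2Bub1 in 75.6%, 95.6%, 97.5%, 98.7% and 99.2% of their genes, and those of mESCs in 88.0%, 89.7%, 92.3%, 93.6% and 94.8%. In those lists, promoter Pol II was called at 51.1% and 33.9% of all genes and body H2Bub1 at 53% and 53.6%. The slope in WT MEFs was the widest of these 3 pairs, in lists that differ in length and unknown depth, and the difference between pairs was not tested. The strength groups of WT MEFs kept an order in the KO list up to group 4, with 61.0%, 89.6%, 95.7%, 97.6% and 97.3% of the same genes marked.

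Single genes at the top of the ranking showed both patterns. The strongest promoter among genes with H2Bub1 was that of Selenot, which encodes a selenoprotein of the endoplasmic reticulum, with a fold of 51.4. The gene runs from 58576636 to 58593133 on the plus strand of chromosome 3. Pol II covered only 5.10% of its 16.5 kb, at the start, and H2Bub1 covered 60.9%. Col3a1, a fibrillar collagen chain, came next with a fold of 49.2, and there the picture was turned around, with Pol II over 79.9% of 38.2 kb and H2Bub1 over 0.954%. Rsrp1, an arginine- and serine-rich protein (48.0), and Zfp36l1, an RNA-binding protein that promotes mRNA decay (47.1), carried both marks over most of their short bodies, with H2Bub1 over 71.8% and 77.7%. Ptms, the gene of parathymosin, had a fold of 46.5, with the summit 2206 bp downstream of the TSS, Pol II over its whole body and H2Bub1 over 44.9%.

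Among the strongest promoters without H2Bub1, several Pol II peaks were shared or offset. Alyref2 (fold 50.1), a short gene of 1.27 kb related to the mRNA export factor ALYREF, had its Pol II summit 436 bp upstream of the TSS. Lag3 (46.5) took its value from the peak of its neighbour Ptms, with the summit 6192 bp upstream of its own TSS, and Ttc39d (44.0) from the peak of Srsf7. Gtf3c6, a subunit of the Pol III factor TFIIIC (46.2), had its summit 550 bp upstream, and Parp16, a mono-ADP-ribosyltransferase (47.8), had it 1150 bp downstream, outside the window. Shared and offset peaks were more frequent among strong genes that lacked H2Bub1. Of the 571 genes of group 5 without H2Bub1, 11.7% had the summit outside the window and 32.2% another TSS within 1000 bp, against 5.39% and 20.04% of the 1801 with H2Bub1. They were also more often shorter than 5 kb (24.2% against 13.99%) and more often without Pol II beyond the first 1000 bp (35.9% against 16.1%). In the KO list, 89.7% of the 571 and 99.8% of the 1801 had H2Bub1.

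The promoter sequences of 7 of these genes are shown because they span the combinations of the marks: strong Pol II with wide H2Bub1 (Selenot, Rsrp1, Zfp36l1), wide Pol II with hardly any H2Bub1 (Col3a1 and Postn), strong promoter Pol II with none (Alyref2), and Pol II over part of the body with H2Bub1 over nearly the whole gene (Ywhae). Postn and Ywhae, described further on, were chosen after their values were seen. Each is the 250 bases upstream of the RefSeq start (GRCm38.p6), 5′ to 3′ on the strand of the gene. Capitals mark matches on either strand to the letters of 3 promoter elements, and a match on the other strand reads as the reverse complement. For the box bound by the TATA-binding protein, the motif searched was TATAAA. The element known for the factor NF-Y was searched as CCAAT. For the element that Sp1 family proteins are known to bind, it was GGGCGG. The positions are chr3:58576386-58576635 (plus strand), chr4:134923375-134923624 (plus), chr12:80113014-80113263 (minus), chr1:45311288-45311537 (plus), chr3:54360857-54361106 (plus), chr1:171503228-171503477 (plus) and chr11:75732637-75732886 (plus).
Selenot: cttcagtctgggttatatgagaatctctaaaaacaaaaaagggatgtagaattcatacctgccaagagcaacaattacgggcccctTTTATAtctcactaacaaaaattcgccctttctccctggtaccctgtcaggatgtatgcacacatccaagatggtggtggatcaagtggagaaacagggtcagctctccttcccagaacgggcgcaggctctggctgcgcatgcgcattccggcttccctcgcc
Rsrp1: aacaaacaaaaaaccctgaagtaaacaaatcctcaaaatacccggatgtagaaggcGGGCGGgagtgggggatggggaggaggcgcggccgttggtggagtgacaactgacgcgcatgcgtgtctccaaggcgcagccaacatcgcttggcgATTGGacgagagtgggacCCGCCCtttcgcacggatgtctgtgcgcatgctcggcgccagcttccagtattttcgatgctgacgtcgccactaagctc
Zfp36l1: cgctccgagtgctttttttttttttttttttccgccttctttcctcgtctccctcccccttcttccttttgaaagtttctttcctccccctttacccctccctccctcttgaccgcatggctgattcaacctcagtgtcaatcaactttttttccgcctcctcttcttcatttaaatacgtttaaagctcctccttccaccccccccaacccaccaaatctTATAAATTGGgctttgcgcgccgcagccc
Col3a1: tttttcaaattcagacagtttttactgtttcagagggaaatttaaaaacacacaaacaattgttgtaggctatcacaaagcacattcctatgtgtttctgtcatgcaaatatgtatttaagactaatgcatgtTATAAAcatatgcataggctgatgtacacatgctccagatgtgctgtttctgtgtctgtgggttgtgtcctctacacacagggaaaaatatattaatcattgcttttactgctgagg
Postn: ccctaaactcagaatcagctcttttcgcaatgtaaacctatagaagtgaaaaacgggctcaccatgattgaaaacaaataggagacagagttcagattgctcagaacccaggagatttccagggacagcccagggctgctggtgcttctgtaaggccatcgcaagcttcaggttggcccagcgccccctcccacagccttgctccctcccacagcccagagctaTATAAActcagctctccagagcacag
Alyref2: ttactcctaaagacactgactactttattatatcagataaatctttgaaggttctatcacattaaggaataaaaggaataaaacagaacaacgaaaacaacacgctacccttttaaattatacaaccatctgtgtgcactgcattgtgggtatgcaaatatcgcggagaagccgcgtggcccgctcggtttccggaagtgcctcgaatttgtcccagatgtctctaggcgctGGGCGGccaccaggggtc
Ywhae: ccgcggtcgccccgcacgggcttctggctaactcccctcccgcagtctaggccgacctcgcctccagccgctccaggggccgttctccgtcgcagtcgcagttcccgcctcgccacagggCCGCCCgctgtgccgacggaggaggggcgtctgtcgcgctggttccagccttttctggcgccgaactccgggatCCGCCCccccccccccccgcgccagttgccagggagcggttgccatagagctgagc

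TATAAA lay 29 bp upstream of the RefSeq start in Zfp36l1, where it overlapped a CCAAT match on the other strand, and 26 bp upstream in Postn. In Col3a1 it lay 117 bp upstream and in Selenot 164 bp upstream, on the other strand. Rsrp1 and Ywhae each held a pair of GGGCGG matches and Alyref2 a match 18 bp upstream. The ratio of observed to expected CpG was 0 in Col3a1, 0.244 in Postn and 0.525 in Selenot, against 0.892 to 1.06 in Ywhae, Alyref2, Zfp36l1 and Rsrp1. Of the 21938 genes, 13824 had a RefSeq promoter within 500 bp of the annotated TSS. A CpG ratio of at least 0.6 was found in 50.6% of these promoters, in 83.0% of those with both marks, 62.9% with Pol II only, 18.4% with H2Bub1 only and 14.9% with neither. The difference was also present within strength groups, with 85.2% against 77.9% for genes with and without H2Bub1 in group 5 and 67.1% against 48.8% in group 1. TATAAA was present in 10.46% of all promoters, 5.06% of those with both marks and 6.34% of those with Pol II only. GGGCGG was present in 47.5% of all, 67.0% with both marks and 58.8% with Pol II only, and CCAAT in 36.6% of all and 36.6% with both. A match of letters describes the window and does not show that a factor binds there.

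Next, the marks were compared by gene length. Up to 100 kb, longer genes were more often marked at the call of 1 bp, but a smaller part of each marked gene was covered. H2Bub1 was found in 34.4% of Pol II promoter genes shorter than 5 kb (32.0 to 36.9%, 1477 genes), 41.2% from 5 to 10 kb, 50.7% from 10 to 20 kb, 57.2% from 20 to 50 kb, 66.3% from 50 to 100 kb (64.0 to 68.6%) and 58.5% from 100 kb on (56.0 to 61.0%). Genes shorter than 2 kb had it in 23.9% of 389 cases. In genes with H2Bub1, the covered share went down from 54.2% in the shortest to 4.53% in the longest class, while the covered bases went up from 1438 bp to 7994 bp. The order of short and long genes rests on the call of 1 bp of peak. With a call at 10% of the gene body, genes of 50 kb or more had H2Bub1 in 27.7% of cases and genes shorter than 5 kb in 32.6%.

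The increase with strength was present in each length class. Within each length class H2Bub1 increased from group 1 to group 5, from 6.53% to 64.6% in genes shorter than 5 kb and from 20.9% to 87.3% in genes of 50 to 100 kb, the highest value of the 30 combinations. From 100 kb on group 5 was at 83.6%. Length and promoter fold were themselves hardly related, with a rho of -0.0223 over 11860 genes. Among genes of 100 kb or more, the strongest promoters with H2Bub1 were those of Ext1, which makes heparan sulfate chains (fold 41.8, H2Bub1 29.9%), Fbn1, the microfibril protein fibrillin-1 (39.2, with the summit 1637 bp downstream, 2.72%), and Nrf1, a transcription factor for mitochondrial genes (36.0, 26.4%). The strongest without were Aven (33.6), Myom1 (30.1) and Mertk (27.8). Some of the longest genes held little or no H2Bub1. Dlg2, a synaptic scaffold gene of 1973 kb, had a fold of 22.1 and no H2Bub1, Macrod2 had a fold of 10.8 and H2Bub1 over 0.0147% of 1998 kb, and Dmd, the dystrophin gene, had a fold of 4.53 and none.

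**Figure D2:**
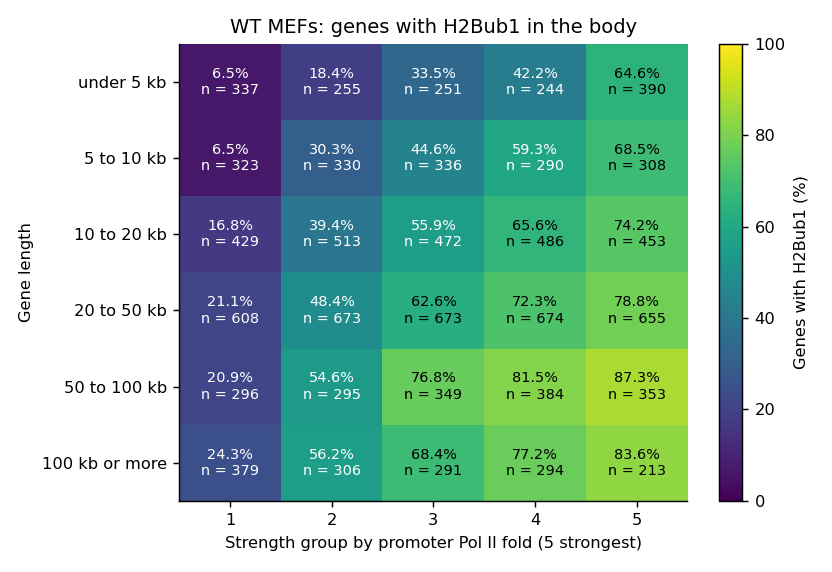
Percentage of WT MEF genes with H2Bub1 in the body by gene length (rows) and promoter Pol II strength (columns, 5 strongest), with the number of genes in each cell. Each row brightens to the right, from 6.53% to 64.6% in genes shorter than 5 kb and from 20.9% to 87.3% at 50 to 100 kb.

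At the other end, some genes lay under H2Bub1 along most of their length. Of the 5 genes with the most H2Bub1 bases, Gm20388 and Fgfr2 are records of 4435 kb and 2961 kb that run across other genes, so their 420 kb and 175 kb belong to several genes. The others were Ankrd11, a chromatin regulator with H2Bub1 over 88.4% of 158 kb, Arid1b, a subunit of the BAF remodelling complex (38.5% of 353 kb), and Zfand3, a zinc finger gene (65.4% of 206 kb). Among genes of 20 kb or more the widest cover was found at Adnp, another chromatin protein (100%), Zfp871 (99.2%), Ywhae, a 14-3-3 protein (98.7%), Yy1, a transcription factor (96.7%), and Crkl, a signalling adaptor (93.0%). Their promoter folds were 30.8, 10.3, 19.1, 18.7 and 14.4 in that order, with Pol II over 32.0%, 6.59%, 37.0%, 11.7% and 2.67% of the body. In all, 32 genes of 20 kb or more had H2Bub1 over at least 80% of the body, and Pol II covered 2.29% to 96.9% of them, with a median of 14.7%. Their median promoter fold was 18.5, against 13.2 for all Pol II promoter genes, and 11 of the 32 were in group 5.

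Pol II beyond the promoter was then used to sort the genes. Genes with Pol II peaks both at the promoter and in the body had H2Bub1 more often than genes with Pol II at the promoter alone. Over genes longer than 2 kb, with the body counted from 1000 bp after the TSS, H2Bub1 was found in 62.6% of the 7332 genes with both (61.5 to 63.7%) and 36.9% of the 4139 with promoter Pol II only (35.5 to 38.4%). It was found in 28.2% of the 1489 with body Pol II only, and in 0.284% of the 7390 without Pol II. The gap was present in each strength group. It was 25.1% against 10.53% in group 1, 49.6% against 35.5% in group 2, 63.9% against 50% in group 3, 74.5% against 56.1% in group 4 and 81.6% against 62.4% in group 5. The direction was also the same in each of the 6 length classes, from 45.4% against 23.8% below 5 kb to 67.2% against 38.3% from 100 kb on.

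Wider body Pol II went with a larger share of genes that had H2Bub1. In genes of 20 kb or more, H2Bub1 was present in 37.7% of those with Pol II over less than 1% of the body, 55.8% at 1 to 2%, 62.5% at 2 to 5%, 74.6% at 5 to 20%, 85.5% at 20 to 50% (337 genes) and 93.6% above that (78 genes). From the first to the last of these classes the median promoter fold went from 9.30 to 21.9 and the median length from 114 to 30.5 kb, and their part in the increase was not tested. Across the 6213 genes with both marks, rho between Pol II share and H2Bub1 share was 0.467, against 0.296 for promoter fold and H2Bub1 share. The H2Bub1 share in these genes was also related to gene length, with a rho of -0.448, and the Pol II share falls with length as well. Over all 11860 Pol II promoter genes the order was the other way round, with 0.218 for the Pol II share and 0.457 for the promoter fold. Within length classes of these 11860 genes rho was lower for the Pol II share than for the promoter fold in 5 of 6, from 0.275 against 0.481 below 5 kb to 0.408 against 0.498 at 50 to 100 kb, and from 100 kb on the values were 0.496 and 0.490.

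How the marks lay along the gene was examined next. The genes were chosen for a Pol II peak near the TSS, so the height of Pol II there is not a result. Away from it, Pol II was frequent again past the gene end, and H2Bub1 was most frequent further into the body and faded toward the end, with part of the ground shared. In genes with both marks, the first H2Bub1 base lay a median of 762 bp after the TSS (685 to 830 bp), with quartiles of 157 and 3273 bp. This start moved toward the TSS with strength, with medians of 4782, 2015, 1192, 567 and 244 bp in groups 1 to 5. At 54.0% of the 6213 genes it lay within the first 1000 bp and at 11.9% H2Bub1 covered the TSS itself. The summit of the promoter Pol II peak was inside H2Bub1 at 1279 genes (20.6%, 19.6 to 21.6%), from 3.53% in group 1 to 38.2% in group 5. In the KO MEF list 85.2% of such summits lay inside H2Bub1 and in mESCs 64.1%, with median starts of 0 and 19 bp.

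Around the TSS of the 8796 Pol II promoter genes of 10 kb or more, Pol II peaks covered 94.5% of genes at 100 bp, 37.9% at 1000 bp and 13.7% at 2000 bp. H2Bub1 covered 6.22% at the TSS, rose to 22.7% at 850 bp and was still at 20.8% at 5000 bp and 14.7% at 10000 bp. Upstream it was low, with 4.17% at 500 bp before the TSS. In group 5 the maximum was 43.2% at 550 bp. These tops are broad, so the distance of the maximum has little precision. In KO MEFs the maximum lay at 850 bp too, at 89.5%, and in mESCs at 350 bp, at 72.7%.

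Over genes scaled to a common length (the 10383 Pol II promoter genes of 5 kb or more), Pol II covered 72.8% in the first of 40 bins of the body, 6.59% in the middle, 17.0% in the last bin and 27.1% over the first 1 kb after the gene end. The first of these values follows from the choice of genes. H2Bub1 covered 15.8% in the first bin, was highest at 22.2% between 7.5% and 10% of the body, and then fell to 9.67% in the middle, 2.08% in the last bin and 2.23% after the end. The return of Pol II at the gene end was therefore not matched by H2Bub1. In group 5, Pol II returned to 40.1% after the end and H2Bub1 was at 3.75%.

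**Figure D3:**
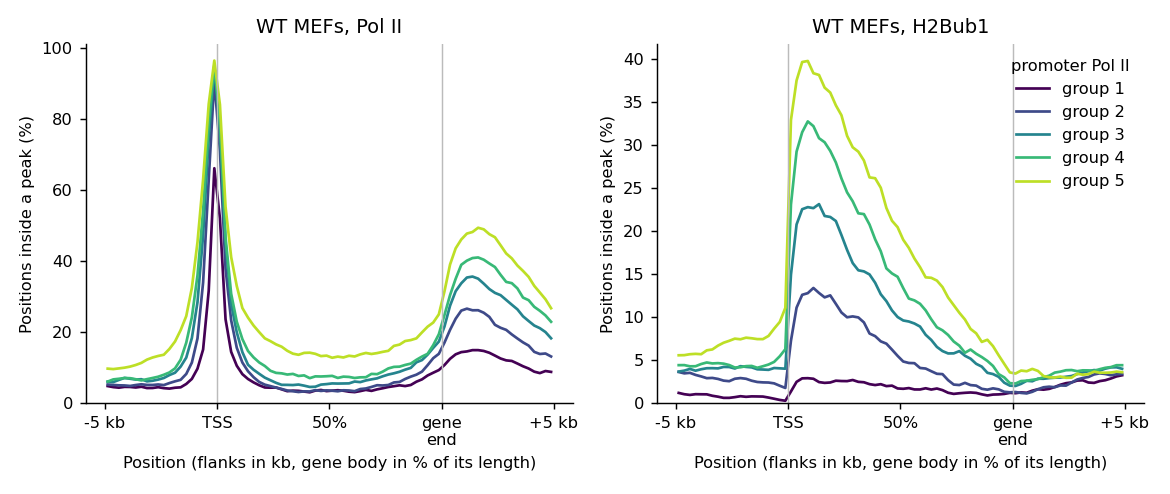
Share of positions inside a peak over Pol II promoter genes of 5 kb or more, with 5 kb flanks and the body scaled to its length, for Pol II (left) and H2Bub1 (right), with 1 line for each of the 5 strength groups. Pol II is high at the TSS and again after the gene end (40.1% in group 5), while H2Bub1 is highest in the early body (39.8% in group 5) and low at the end (3.59%).

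Counted in bases, the overlap differed by stretch. In the first 1000 bp of the same 10383 Pol II promoter genes, where Pol II is high by the choice of genes, 72.3% of bases lay in Pol II and 18.6% in H2Bub1 peaks, from there to 5000 bp the values were 13.3% and 21.1%, and beyond 5000 bp they were 2.94% and 6.29%. Of the H2Bub1 bases, 84.0% in the first 1000 bp lay inside Pol II peaks, 20.8% from there to 5000 bp and 7.02% beyond. By strength group, the value for the first 1000 bp was 48.0%, 65.5%, 78.2%, 85.3% and 92.1%, beside 47.8%, 67.3%, 76.9%, 82.5% and 86.9% of all bases of that stretch, so that it lay close to the share of all bases in groups 1 to 3. Bases inside Pol II peaks were more often in H2Bub1 than the other bases of the same stretch, with 21.6% against 10.8% in the first 1000 bp, 32.8% against 19.2% up to 5000 bp and 15.0% against 6.02% beyond. In the first 1000 bp this did not hold within each strength group, with 1.56% against 1.55% in group 1, 8.97% against 9.73% in group 2, 17.7% against 16.4% in group 3, 28.3% against 23.0% in group 4 and 40.3% against 22.8% in group 5. Of 10561 promoter Pol II peaks, 30.1% touched an H2Bub1 peak, and these were stronger (median fold 17.7 against 10.2) and wider (1955 against 1124 bp) than those that did not. Of 22800 Pol II peaks in gene bodies, 21.6% touched H2Bub1, with like fold whether they did or not (3.52 and 3.54), and of 12508 intergenic peaks 2.84% did. Exons made up 7.66% of the bodies, 29.3% of the Pol II bases and 7.01% of the H2Bub1 bases, so that Pol II was rich in exonic sequence, which includes the first exon, and H2Bub1 was not.

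Gene classes were then set against the 52.4% of all Pol II promoter genes that had H2Bub1. Ribosomal protein and splicing factor genes were marked in nearly every case, although with peaks of a -log10 q of at least 3 alone the shares were 58.0% and 71.0%. Of 81 cytosolic ribosomal protein genes with promoter Pol II, 80 had H2Bub1 (98.8%, 93.3 to 100%), with a median fold of 25.9, and the exception was the X-linked Rpl36a, with a fold of 39.2 and no H2Bub1. Only 77 of the 81 lay on the autosomes, and the other X-linked members had H2Bub1. Rpl41 (fold 40.2) had H2Bub1 over 68.8% of its body and Rplp0 (38.9) over 53.1%. The hnRNP and SR splicing factors followed with 30 of 31 (96.8%), again with an X-linked exception, Hnrnph2, and with Hnrnpab covered over 100% and Srsf5 over 96.9%. Proteasome subunits had 29 of 35 (82.9%), and the immunoproteasome genes Psmb8, Psmb9 and Psmb10 were among the 6 without. Chaperones had 17 of 21 (81.0%), with Hsp90ab1 (fold 40.8) covered over 100% and the heat shock genes Hspa1a, Hspa1b, Hspb1 and Hsph1 without H2Bub1.

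Most genes for the machinery of the mark itself had H2Bub1. Of the 16 genes for the H2B ligase, the PAF complex and the histone chaperone FACT, all had promoter Pol II and 14 had H2Bub1 (87.5%). Rnf20 had a fold of 17.2 and H2Bub1 over 11.4% of the body, and its partner Rnf40 a fold of 6.22 and 33.6%. Supt5, the elongation factor SPT5, was covered over 43.1% and Supt16, a FACT subunit, over 35.8%. Paf1 (fold 18.6) and Ssrp1 (13.5) had none. The COMPASS and DOT1L genes, for methyltransferases that H2Bub1 is known to stimulate and their partners, had 18 of 19 (94.7%), with Kmt2d at 54.2%, Wdr82 at 51.5% and Dot1l at 34.1%, and Men1 (fold 6.75) without. In the deubiquitylase module 6 of 8 had H2Bub1 (75%, 34.9 to 96.8%, an interval that holds the 52.4% of all): Usp22 (fold 8.75, 36.8%), Atxn7l3 (20.9, 22.03%), Eny2 (19.4, 14%), Atxn7l2 (33.3, 13.3%), Atxn7 (21.5, 4.21%) and Atxn7l1 (12.8, 2.94%). Usp27x and Usp51, both on chromosome X, had none.

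Replication-dependent histone genes departed from the relation with strength. They are mostly short, intronless genes without poly(A) tails that are transcribed in S phase. Of 67 annotated, 60 had a Pol II promoter peak with a median fold of 26.6, and 50 were in strength group 5, but only 6 had H2Bub1 (10.0%, 3.76 to 20.5%). The median gene lay wholly inside Pol II. The highest fold, 40.04, was shared by Hist1h3f, on chromosome 13 from 23544052 to 23545312, with Pol II over 95.3% and H2Bub1 over 0%, and Hist1h2bh, with 83.8% and 0%, whose TSS is 1102 bp from the summit. The 6 with H2Bub1 were Hist3h2a (99.2% covered), Hist2h2ac (86.5%), Hist1h4k (81.1%), Hist1h2bg (56.8%), Hist1h4i (45.7%) and Hist2h2ab (34.5%). H2Bub1 was found in 3 of 15 H2A, 1 of 15 H2B, 2 of 13 H4, 0 of 12 H3 and 0 of 5 H1 genes.

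The histone genes lie in clusters and are not separate observations: the 60 took their values from 33 Pol II peaks, and 39 had the summit inside their own window, 5 of these with H2Bub1. Other short genes with strong promoters were marked more often. Among group 5 genes shorter than 2 kb, 5 of 44 histone genes (11.4%) had H2Bub1, against 10 of 10 ribosomal protein genes and 31 of 64 others (48.4%, 35.8 to 61.3%). These genes were not matched for length. The 60 histone genes had a median of 0.556 kb, and all Pol II promoter genes shorter than 2 kb, histone genes included, a median of 1.35 kb. The part of length in this difference was not tested. In KO MEFs 33 of the 60 (55%) and in mESCs 38 (63.3%) had H2Bub1 in the body, against 93.3% and 91.7% of the Pol II promoter genes of those lists. Immediate early genes had H2Bub1 in 18 of 23 cases (78.3%) at a median fold of 23.8, and were longer, with a median of 5.16 kb against 0.556 kb for the histone genes. Jund (fold 38.1) was covered over 96.9%, Jun (24.2) over 93.9%, Myc (25.4) over 81.9% and Fos (29.0) over 29.5%, and Fosb, Egr2, Egr3, Nr4a1 and Maff had no H2Bub1, at folds of 4.28 to 11.9.

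**Figure D4:**
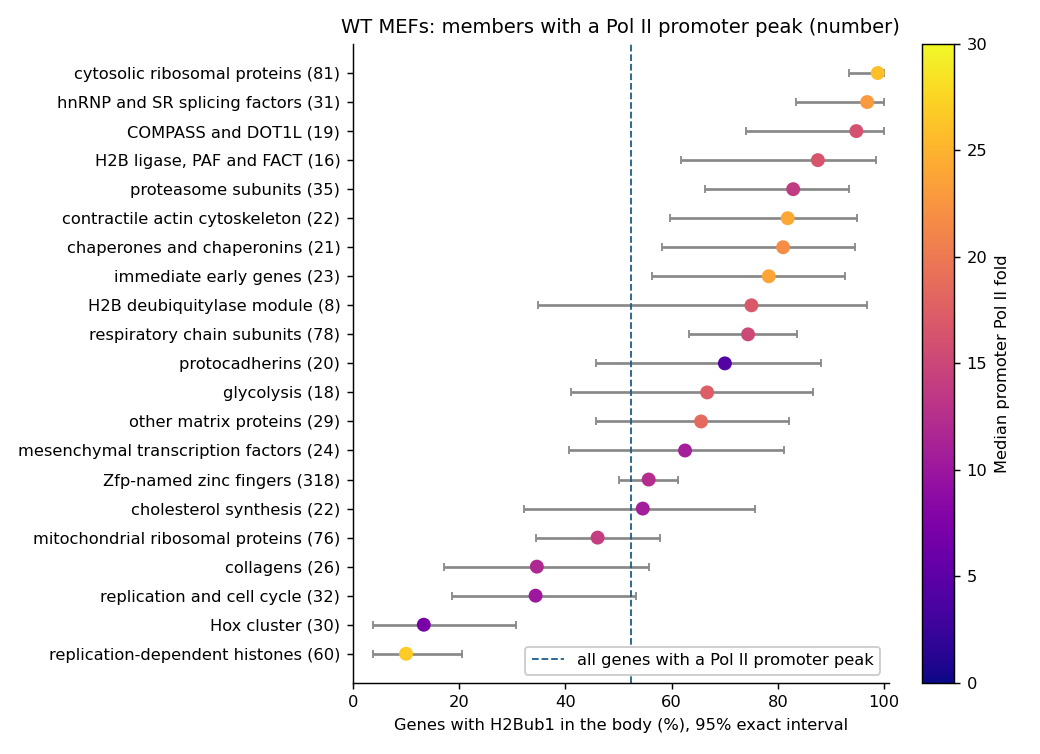
Percentage of genes with H2Bub1 in the body for 21 gene classes, among members with a Pol II promoter peak (number in brackets), with 95% exact intervals over genes and colour for the median promoter Pol II fold. The dashed line is the 52.4% of all such genes, and the histone genes sit at 10.0% in spite of a median fold of 26.6.

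Other classes spread around the dashed line in the plot of classes. Respiratory chain subunits had H2Bub1 in 58 of 78 cases (74.4%), while mitochondrial ribosomal proteins, with a like median fold (14.01 against 15.2), had it in 35 of 76 (46.1%). Mrps18b (fold 37.7) and Mrps14 (27.1) were strong members without H2Bub1, and Mrps2 was covered over 72.4%. Contractile genes of the actin cytoskeleton had 18 of 22 (81.8%), with Actb and Actg1 covered over 100%. Matrix glycoproteins and their enzymes had 19 of 29 (65.5%, 45.7 to 82.1%) and collagens 9 of 26 (34.6%, 17.2 to 55.7%), and both intervals hold the 52.4% of all. Cholesterol synthesis genes had 12 of 22 (54.5%), led by Insig1 (fold 37.2, 71.1% covered), and the 318 Zfp-named zinc finger genes 55.7%. Replication and cell cycle genes had 11 of 32 (34.4%) at a low median fold of 10.1, and Pcna, the polymerase clamp and the strongest of them (23.3), had none. Hox genes had 4 of 30 (13.3%), which were Hoxa3, Hoxa5, Hoxa11 and Hoxb2, at a median fold of 7.14, with H2Bub1 over 1.96% to 30.6%. Hoxa3 overlaps Hoxa5 and the same 866 bp count for both. Glycolysis had 12 of 18 (66.7%), mesenchymal transcription factors 15 of 24 (62.5%) and protocadherins, whose cluster genes overlap, 14 of 20 (70%). The intervals of these 3 classes and those of mitochondrial ribosomal proteins (34.5 to 57.9%), replication and cell cycle genes (18.6 to 53.2%), cholesterol synthesis and the Zfp-named genes hold the 52.4% of all as well. Of 1124 olfactory and 327 vomeronasal receptor genes, 4 and 1 had promoter Pol II and 0 had H2Bub1.

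Genes with Pol II over most of a long body were then looked at 1 group at a time. This set of 78 genes of 20 kb or more, with Pol II over at least 50% of the body, was chosen after the values were seen and is given as a description. H2Bub1 covered 0% to 83.6% of them, with a median of 18.9%, at promoter folds of 3.38 to 49.2. Several matrix genes held little H2Bub1. Postn, the matricellular protein periostin (chromosome 3, 54361109 to 54391037), had Pol II over 84.6% and no H2Bub1, and Tnc, tenascin C, had 89.9% and 1.39%. Thbs2, a thrombospondin, had 79.5% and 2.14%, Fbn1 57.4% and 2.72%, Col1a2, a type I collagen chain, 97.9% and 7.40%, and Fn1, fibronectin, 99.4% and 11.2%. The 11 collagen and matrix genes had a median H2Bub1 share of 2.72% (0% to 39.9%), and 7 of them were below 10%, as were 20 of the 59 genes of neither class and 0 of the 8 contractile genes. Col5a1, at 39.9%, was the highest. Shorter matrix genes went both ways, with H2Bub1 over 60.7% of Col1a1 (16.8 kb, Pol II 100%) and 82.5% of the collagen chaperone gene Serpinh1, and none at Mgp, matrix Gla protein (3.39 kb, Pol II 98.5%), or Spp1, osteopontin (5.93 kb, 92.8%).

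The 8 contractile genes of this set were covered more widely, with a median of 34.2% (13.7% to 68.2%) at a median Pol II share of 90.7%, against 79.9% for the matrix genes, and the ranges overlapped. Cnn3, a calponin, had H2Bub1 over 68.2%, Actn1, an alpha-actinin, over 60.4%, Myh9, the heavy chain of non-muscle myosin, over 55.8% and Tpm1, a tropomyosin, over 38.4%. The X-linked Flna, filamin A, was the lowest at 13.7%. The other 59 genes had a median of 20.9%, with Pmepa1 (83.6%), Ywhag (78.5%), Ywhaz (76.6%) and the AP-1 gene Fosl2 (75%) at the top. In the KO list the medians were 33.6% for the matrix genes, 80.3% for the contractile genes and 84.7% for the others. No H2Bub1 at all was found at 5 of the 78 genes: the matrix gene Postn, and Azin2, Thumpd3, Nrep and Hoxb3, which are in neither class.

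**Figure D5:**
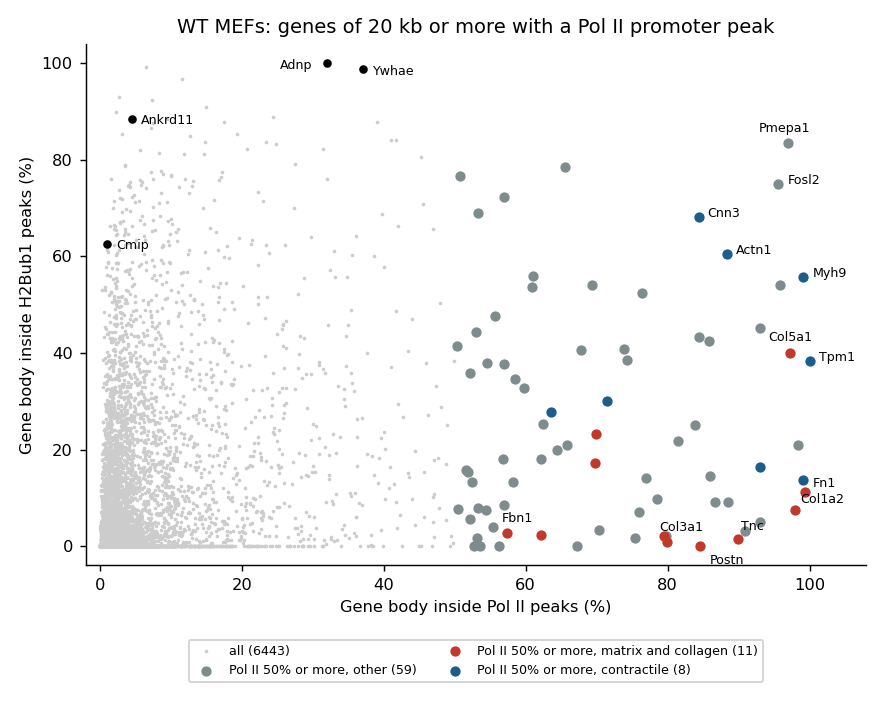
Share of the gene body inside H2Bub1 peaks against the share inside Pol II peaks in WT MEFs, with 1 point per gene of 20 kb or more with a Pol II promoter peak (6443 genes). Coloured points have Pol II over at least 50% of the body: 11 matrix and collagen genes (red, median H2Bub1 2.72%), 8 contractile genes (blue, 34.2%) and 59 others (dark grey, 20.9%), and black points at the left (Cmip, Ankrd11, Adnp and Ywhae) show wide H2Bub1 with Pol II over 1.02% to 37.0% of the body.

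Genes that the study displayed fell along the same range. Klhl11, a ubiquitin ligase adaptor, had a promoter fold of 24.8 and H2Bub1 over 68.6% of 10.1 kb. Cmip, a signalling adaptor, lies on chromosome 8 from 117257064 to 117459430. It had a fold of 12.4 with Pol II over 1.02% and H2Bub1 over 62.6% of 202 kb, an example of wide H2Bub1 with Pol II peaks over little of the body. Bud13, a splicing factor (22.3), had 13.7%, and Zpr1, a zinc finger protein (12.3), had 10.4%. Acly, which makes cytosolic acetyl-CoA, had a strong promoter (26.6) and only 4.47%. The glycolytic gene Pgk1 (12.4), on chromosome X, had none.

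Genes on chromosome X had H2Bub1 less often than those on the autosomes. Of 359 X-linked genes with promoter Pol II, 75 had H2Bub1 (20.9%, 16.8 to 25.5%), against 53.4% on all autosomes and 47.0% to 60.7% on the 19 single autosomes. Promoter Pol II was weaker on X too, with a median fold of 10.0 against 12.5 to 14.5, and within each strength group the share was lower on X, from 1.85% against 17.4% in group 1 to 63.6% against 76.2% in group 5. In groups 1 to 4 the autosomal share lay above the interval for X, and in group 5, with 44 genes on X, it lay inside it (47.8 to 77.6%). In KO MEFs the share was 92.0% on X and 93.3% on the autosomes, and in mESCs 73.6% of 91 genes and 91.9%. Pol II peaks at Y-linked promoters numbered 4 in the WT MEF list and 0 in each of the KO MEF and mESC lists. The part of the cells' sex in these values was not tested.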

How the data were processed

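Per the study's methods, MEFs and mESCs were fixed and immunoprecipitated with N-ethylmaleimide in the buffers, and the libraries were read as short single-end reads. The authors mapped them to mm10, and their processing notes name Bowtie 1.0.0 and MACS2 2.1.1.20160309. Peaks were called in each library, narrow for Pol II and broad for H2Bub1. H2Bub1 was scaled by intergenic reads and Pol II by total reads, and how this entered the calls, the control and the thresholds are not given in the sources used here. The fold that the authors deposited is a ratio, on a linear scale, of signal to local background. Each deposited line also holds a -log10 p and a -log10 q, and narrow peaks carry a summit position given as a distance from their start.

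Peaks were set against GENCODE M21 (21938 genes). A promoter call needed 1 bp of Pol II peak within 1000 bp of the TSS, a body call 1 bp of H2Bub1 peak from TSS to gene end. Peaks were not merged across libraries. Intervals at 95% are Clopper-Pearson for percentages and exact binomial for medians. Rank correlations (Spearman) are descriptions across genes. Peak depth in reads is unknown, so precision is given over genes only. Genes and class lists were chosen with earlier results of these data known. Exceptions within a class were named after their values were seen. Other named genes are those the study displayed, the H2B ubiquitylation genes, the markers, the extremes of each ranking and up to 3 leading members per class. Some genes chosen by this rule are not reported here. Symbols Cct6a, Cyr61 and Ctgf are not in the annotation. The code was tested on simulated peaks. Computing used numpy 2.4.6, pandas 2.3.3, matplotlib 3.10.9 and scipy 1.17.1 in Python 3.11.15.

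As alternatives, peaks below a -log10 q of 3 were dropped, and use was made of a narrow promoter (100 bp before to 300 bp after the TSS), an H2Bub1 call at 10% of the body, genes at least 5000 bp apart, autosomes alone, H2Bub1 counted from 1000 bp after the TSS, strength by -log10 p and, added after seeing the data, promoter peaks with the summit in the window.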

Additional observations from a re-analysis of the deposited data

How the results depend on the processing

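No paired analysis was possible because each mark has 1 library per group. Across the 8 alternatives, the strongest group stayed above the weakest in 8 of 8. Genes with body Pol II stayed above genes with promoter Pol II alone in 7 of the 7 that bear on them, and genes of 50 kb or more above genes shorter than 5 kb in 6 of 7. Dropping peaks below a -log10 q of 3 left 1354 of the 19725 H2Bub1 peaks. H2Bub1 was then found in 9.60% of Pol II promoter genes, 22.1% of the strongest and 1.74% of the weakest group, 8.76% below 5 kb, 13.9% from 50 kb on, 13.3% with body Pol II and 3.58% with promoter Pol II only, with a first base at 363.5 bp and 32.0% of summits inside. A call at 10% of the body gave 32.0% of all, 55.7% and 5.52% of the strongest and weakest, 27.7% from 50 kb on, and 40.1% and 18.6% with and without body Pol II. The 10531 genes away from other genes gave 54.7%, 83.9%, 12.6%, 42.2% below 5 kb, 60.8% from 50 kb on and 68.6% with body Pol II, with a rank correlation of promoter fold and H2Bub1 share of 0.559. Counting H2Bub1 from 1000 bp after the TSS gave 50.3% of all, 71.4% of the strongest, 29.0% below 5 kb, and 60.7% and 35.4% with and without body Pol II. Autosomes alone gave 53.4% of all and 64.4% from 50 kb on, and the narrow promoter 18.6% of the weakest. Strength by -log10 p bears on the strongest and weakest group and on the rank correlation, which was then 0.493. This setting and summits in the window moved no percentage they were run for outside its interval. Class values also moved: at a -log10 q of 3, H2Bub1 was found in 58.0% of cytosolic ribosomal protein, 71.0% of splicing factor, 26.1% of immediate early, 11.5% of collagen, 3.125% of cell cycle, 2.63% of mitochondrial ribosomal protein and 0% of histone and Hox genes. The call at 10% of the body gave 27.6% for mitochondrial ribosomal protein, 12.5% for cell cycle, 7.69% for collagen and 6.67% for Hox genes. Histone genes had 1.67% from 1000 bp after the TSS, past the end of most of them. Where the values moved, the cause was not tested. A single library per mark, unknown depth and weak H2Bub1 calls limit all of these percentages, and a body without a peak may hold H2Bub1 below the calling threshold.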
